A study of Branchiostoma lanceolatum with 6 samples.

Results

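The 100 genes described here are those whose levels differed least between the major cell types of the amphioxus neurula. They were chosen by their levels among 1142 genes with at least 5000 unique molecular identifiers (UMIs) over all cells, out of 27073 genes in the count table. For each cell type the UMIs of a gene were summed over its cells and divided by the UMIs of all genes, which gives a level in UMIs per 10,000 UMIs. The highest level among 11 cell types was then divided by the lowest, and the 100 smallest ratios were taken. These ratios selected the genes, so within those 11 types they are a description and carry no test.

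Each animal cell transcribes a shared core of genes for translation, splicing, protein folding and energy supply, often called housekeeping genes. Such genes serve as references when the expression of other genes is compared between tissues. Sharing by all cells does not fix an equal level, since growing and dividing cells contain more of the translation machinery than quiet ones. Evenness across cell types is also a different property from evenness across the cells of 1 type, and both were measured here.

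The cells come from wild-type *Branchiostoma lanceolatum* embryos collected 21 hours after fertilization and were profiled by MARS-seq, in which single live cells are sorted into the wells of plates and each captured mRNA is tagged with a UMI. It holds 14586 cells on 40 plates with 31802996 UMIs and a median of 1585 UMIs per cell. The 2 sequenced samples come from pooled embryos and are not told apart in the names of the cells, so all cells form 1 sample, plates are technical batches of it, and no p-value was computed. Intervals in parentheses are exact Poisson 95% intervals and cover counting error only.

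The cell types are those of the deposited annotation, which groups the cells into 176 metacells, clusters of cells with like transcriptomes, and these into 17 types. The 11 types that chose the genes are anterior epidermis (epidermis_1, 3189 cells), posterior epidermis (epidermis_2, 6546), endoderm (842), endostyle and club-shaped gland (endostyle_csg, 223), neural (1243), anterior archencephalon (HyTh, 245), neural tailbud (211), tailbud (279), non-muscular somite (666), muscular somite (182) and notochord (409). The 6 types left out are DiMes (38 cells), epidermal_neural1 (108), epidermal_neural2 (99), neural_like1 (30), neural_like2 (110) and putative_neuro_endo (166). Their levels did not enter the ratio, but their UMIs counted toward the minimum, and 7 of the 100 genes would be under 5000 UMIs in the 11 types alone, with 4827 or more. They also share plates and library chemistry with the rest. No cell name occurred in more than 1 column.

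The class neural_like1 stands apart in a way that bears on 8 of the even genes. Gene IDs in this annotation carry 2 digits after BLAG, from 01 to 19 and 90, and the files do not say what the digits stand for. Genes with IDs starting BLAG01 took 8.77% to 10.9% of the UMIs in each of the 11 types but 1.75% (1.64 to 1.87) in neural_like1. Results for that class are therefore given with and without these genes.

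The even genes had ratios from 1.31 to 2.08, with a median of 1.85. All 1142 genes had a median of 5.11, and 820 of them (71.8%) had a ratio of 3 or more. Only 9 genes, all of them in the set, stayed under 1.5, and 80 stayed under 2. The set does not end at a break. The last 3 genes inside had ratios of 2.07 (BLAG02001901), 2.08 (BLAG12000185) and 2.08 (BLAG09000472), and the first 3 outside had 2.08 (BLAG14000750), 2.08 (BLAG15000959) and 2.09 (BLAG16000381).

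**Figure D1:**
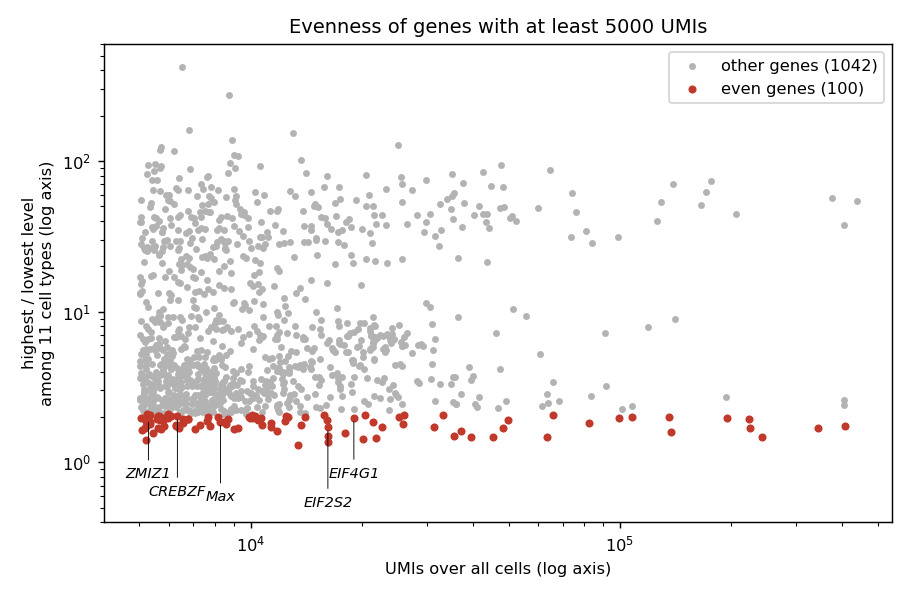
The ratio of the highest to the lowest level among 11 cell types (log axis) against the UMIs of each gene over all cells (log axis), with 1 point per gene. The 100 even genes (red) lie between 1.31 and 2.08 across the whole range of UMIs, and the other genes (grey) reach 422.

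The even genes together took 10.8% of all UMIs and between 10.1% and 12.1% of the UMIs in each of the 11 types. Their UMIs ranged from 5052 to 407628 per gene with a median of 10133, against a median of 8782 for all 1142 genes. The 5 with most UMIs (BLAG04000491, BLAG04000492, BLAG01000856, BLAG12000617 and BLAG90000129) held 41.9% of the UMIs of the set. Across the 1142 genes the ratio and the UMIs of a gene had a Spearman correlation of 0.085, which describes genes that share the same libraries.

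Of the even genes 5 have a name in the sources used here, and of all 1142 genes at the minimum 168 do. Names came from a shortened table of markers that amphioxus endoderm shares with tissues of other chordates and, for *Max*, *ZMIZ1* and *CREBZF*, from labels in the study's figures, which were read for the even genes only. The share of named genes is therefore no measure of what the set contains. The 95 other even genes are given by ID only.

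*EIF2S2* (BLAG07000738) encodes a subunit of the initiation factor that in other animals brings the first tRNA to the ribosome. Its level was lowest in posterior epidermis at 4.2 (4.07 to 4.33), had a median of 6.13 over the 11 types and was highest in tailbud at 7.18 (6.50 to 7.90), a ratio of 1.71. Endoderm, at 7.12 (6.78 to 7.48), could not be told from tailbud within these intervals. Both epidermal types, at 4.2 and 4.30, were below the other 9, and putative_neuro_endo, which did not choose the gene, had 7.35 (5.53 to 9.56).

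*EIF4G1* (BLAG11000416) encodes the scaffold of the complex that binds the cap of an mRNA. Its levels ran from 4.87 (4.73 to 5.01) in posterior epidermis, through a median of 6.59, to 9.58 (9.18 to 9.99) in endoderm, a ratio of 1.97. Muscular somites, at 8.89 (8.14 to 9.69), and endostyle and club-shaped gland, at 8.49 (7.73 to 9.30), overlapped with endoderm. In DiMes, which did not choose the gene, it stood at 11.6 (9.63 to 13.8), 1.94 times its level in the 11 types pooled. Both initiation factors had their lowest level in posterior epidermis. Endoderm was the highest type for *EIF4G1* and could not be told from the highest type for *EIF2S2*. These levels also chose the genes, so this is a description.

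*Max* (BLAG04001775) encodes the partner with which Myc binds DNA. Its lowest level was 1.94 (1.77 to 2.13) in endoderm, its median 2.60 and its highest 3.61 (3.22 to 4.03) in notochord, a ratio of 1.86. Non-muscular somites, at 3.47 (3.24 to 3.72), overlapped with notochord. At the low end HyTh, at 2.04 (1.70 to 2.44), endostyle and club-shaped gland, at 2.40 (2.01 to 2.85), and muscular somites, at 2.30 (1.93 to 2.72), overlapped with endoderm.

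*ZMIZ1* (BLAG90000185), a relative of the PIAS coregulators of transcription, ran from 1.20 (1.13 to 1.27) in posterior epidermis, through a median of 1.96, to 2.33 (1.96 to 2.75) in HyTh, a ratio of 1.95. In putative_neuro_endo only 4 UMIs were counted, a level of 0.534 (0.146 to 1.37). *CREBZF* (BLAG12000742), a leucine zipper factor, ran from 1.54 (1.46 to 1.62) in posterior epidermis, through 2.62, to 3.11 (2.65 to 3.61) in endostyle and club-shaped gland, a ratio of 2.02. Outside the 11 types its level was 5.18 (3.44 to 7.48) in neural_like1 and 4.47 (3.38 to 5.81) in neural_like2, above each of the 11 levels in both cases. A gene that was even over 11 types was thus not even over all 17.

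Ribosomal protein genes that carry a name had larger ratios. None of the 27 large subunit and 20 small subunit ribosomal protein genes at the UMI minimum was in the set. Their ratios ran from 4.36 to 9.76 (median 6.79) and from 5.41 to 10.7 (median 6.67), against the median of 5.11 over all genes. In all 27 and all 20 both epidermal types lay below each of the other 9 types, an arrangement found in 416 of the 1142 genes. The named genes were listed by the study for their endodermal level on these same cells, so neither this direction nor their large ratios are independent evidence.

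Of 14 translation factors 2 were in the set, *EIF2S2* and *EIF4G1*, and the median ratio of the 14 was 6.0. None of 11 genes for the respiratory chain and ATP synthase was in it (ratios 3.13 to 6.76), none of 14 for translocation and glycosylation in the endoplasmic reticulum, none of 12 for splicing and RNA binding, none of 8 for ribosome biogenesis and none of 6 for chromatin. The even set holds 8.76% of all genes at the minimum, so no member among 6 to 14 genes is near that share. Of the 168 named genes 5 are in the set, but 3 of these names were read for the even genes only. That count is therefore no background. The most even gene among these lists outside the translation factors was *RBM39*, with a ratio of 2.61. The cytoskeleton list had 2 genes at the minimum, and the lists for the cell cycle and for the proteasome and ubiquitin had 1 each, none of them in the set. These lists were read by symbol and count only genes with a name, so they say nothing of unnamed genes with the same roles.

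The genes with the smallest ratios carry no name. BLAG05001130 was the most even, at 3.97 (3.84 to 4.10) in anterior epidermis, a median of 4.31 and 5.20 (4.61 to 5.84) in endostyle and club-shaped gland, a ratio of 1.31. BLAG08000524 ran from 4.59 to 6.28 (median 5.16), and BLAG16000679 from 1.29 to 1.80 (median 1.53). BLAG04000885 ran from 5.55 to 7.95 (median 6.66), and BLAG17000279 from 6.05 to 8.81 (median 7.37). In BLAG05001130 the intervals of 4 of the 11 types excluded the pooled level, and in BLAG16000679 those of 3.

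No even gene was flat within counting error. For each gene the pooled level of the 11 types was set against the interval of each type, and every one of the 100 genes had at least 1 type whose interval excluded it. The median even gene had 8 such types of 11, against 10 for all 1142 genes, and 9 even genes had all 11. Deep counts resolve small differences, so the set holds genes of small spread rather than of none.

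The small differences had a direction. Posterior epidermis was the lowest of the 11 types for 37 of the even genes and the highest for 15, against 28.5% and 14.7% of all 1142 genes. Relative to the pooled level the median even gene stood at 0.85 in posterior epidermis, 0.95 in anterior epidermis, 1.16 in neural cells and 1.19 in HyTh. These medians were not computed for all 1142 genes, so whether they are particular to the even set was not tested. The pooled level sums UMIs and so leans toward the epidermis. Of its 30371912 UMIs, 9568628 came from posterior and 8979736 from anterior epidermis. HyTh was the highest type for 21 even genes, against 12.3% of all genes. Each extreme was also used by the rule and gives no test.

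**Figure D2:**
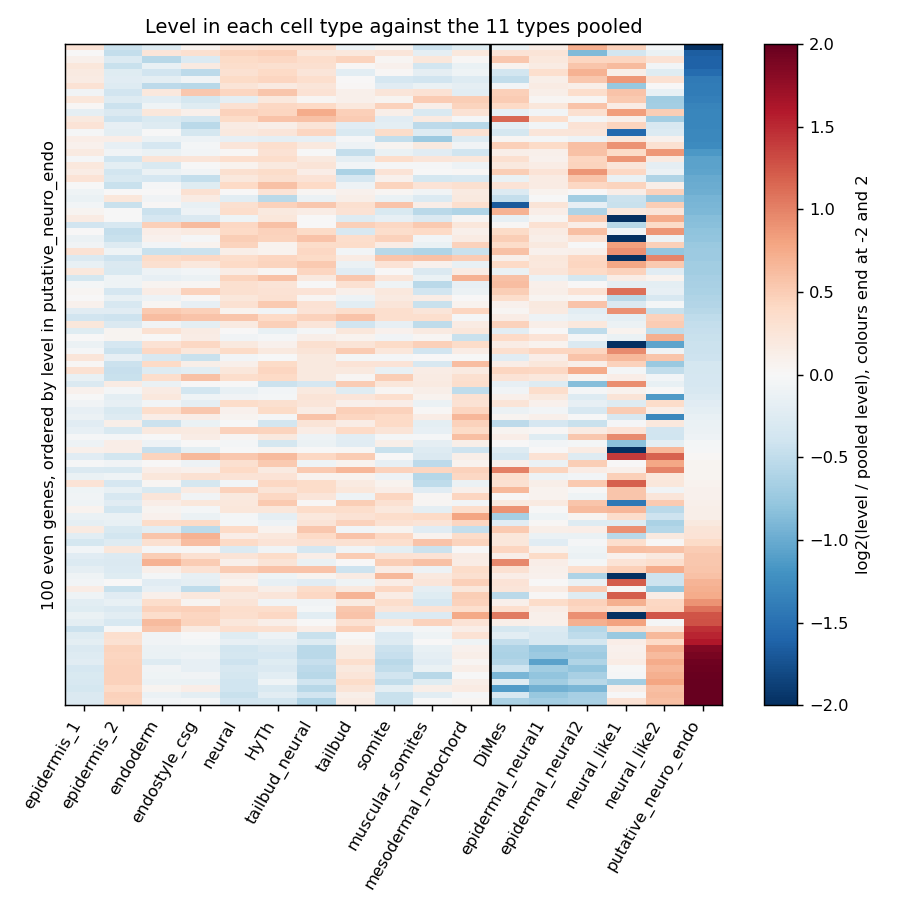
The level of each even gene (rows) in 17 cell types (columns) as log2 of its level over the level of the 11 types pooled, with colours ending at -2 and 2. Left of the line are the 11 types that chose the genes, where no gene was below 0.61 or above 1.73 times its pooled level, and right of it the 6 types that did not.

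The 6 types left out were measured next, as their levels did not enter the ratio. A gene was counted as off in a type where its level was at least 1.5 times, or at most 1 part in 1.5 of, its pooled level in the 11 types. Over the 6 types, 14 even genes were off in none, 34 in 1, 31 in 2 and 21 in 3 or more. Of all 1142 genes 6.74% were off in none, 19.1% in 1 and 24.96% in 2. Off in 3 types were 10 even genes, against 21.2% of all genes, and off in 4 were 4, against 16.5%. Off in 5 types were 7 even genes, against 8.23% of all genes, and off in 6 were 0, against 3.33%. Without the 7 genes that met the minimum only through these types, the numbers off were 16 in DiMes, 9 in epidermal_neural1, 22 in epidermal_neural2, 33 in neural_like1, 33 in neural_like2 and 55 in putative_neuro_endo, of 93 genes each.

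In DiMes 17 of the 100 even genes were off, against 57.5% of all genes. Requiring also that the interval exclude the pooled level left 16, against 56.2%. In epidermal_neural1 9 were off, all lower, against 10.7% of all genes under either criterion. In epidermal_neural2 22 were off, 9 higher and 13 lower, against 42.4% under either criterion. The share off in epidermal_neural1 was thus near that of all genes, and in DiMes and epidermal_neural2 it was smaller.

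In neural_like2 34 even genes were off, 22 higher and 12 lower, against 42.1% of all genes, and with the interval criterion 29, against 39.7%. In neural_like1 36 were off, 23 higher and 13 lower, against 47.9%, and with the interval criterion 31, against 38.5%. In putative_neuro_endo 59 were off, 19 higher and 40 lower, against 58.9%, and with the interval criterion 46, against 49.2%. In that class the even genes departed from their pooled level as often as any gene did, with levels from 0.25 to 4.53 times the pooled one. It is the shallowest class, with a median of 416 UMIs per cell, and a typical even gene had 23 UMIs in it.

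The 5 even genes farthest from their pooled level in any left-out type, apart from genes with no UMI there, included 4 in neural_like1, and all 4 had IDs starting BLAG01. BLAG01000856 had 69 UMIs in that class, a level of 12.8 (9.93 to 16.1), against 60.3 to 89.4 in the 11 types. BLAG01001384 had 1 UMI, 0.185 (0.00468 to 1.03) against 1.57 to 2.76. BLAG01001322 had 4 UMIs, 0.740 (0.201 to 1.89) against 3.24 to 6.49, and BLAG01000385 had 3 UMIs, 0.555 (0.114 to 1.62) against 2.27 to 4.18. In each case the interval in neural_like1 lay below all 11 levels.

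All 8 even genes with such IDs were lower in neural_like1. BLAG01000502 stood at 0.231 times its pooled level with 14 UMIs, BLAG01102827 at 0.240 with 4 and BLAG01000204 at 0.339 with 3. For BLAG01000204 the interval, 0.114 to 1.62, overlapped with the 11 levels (1.28 to 2.21). BLAG01000598 had no UMI among 54090. Taking 3 UMIs over the class as the most that a count of 0 allows, a one-sided limit, it was at least 5.71-fold lower than its pooled level of 3.17, and the wider Poisson interval used for the other genes ended at 0.682. In neural_like2, the other class of that name, the same gene stood at 2.40 times its pooled level.

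This held for every gene with such an ID at the UMI minimum and not for the even genes alone. All 115 of the 115 BLAG01 genes at the UMI minimum were at least 1.5-fold lower in neural_like1, with a median of 0.144 times their pooled level, whereas 30.4% of all 1142 genes were lower there. Among the even genes with other ID digits 5 of 92 were lower. By median the group with digits 08 came next, at 0.72 with 27 of 64 genes lower. Digits 19 and 18 were close to it, each with a median of 0.76. In these 20 of 43 and 16 of 35 genes were lower, larger shares than with digits 08. Without BLAG01 genes the class had 28 of 92 even genes off, 23 of them higher and 5 lower, against 42.1% of the 1027 genes left.

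The depletion was seen cell by cell. In 24 of the 30 neural_like1 cells, which came from 16 plates, BLAG01 genes took less than 4% of the UMIs, a limit chosen after the values were seen. Their highest share was 2.73%, and the other 6 cells started at 6.10%. In the other 16 types 22 of 14556 cells were under 4%, among them 6 in endoderm, 4 in HyTh and 4 in posterior epidermis. The median cell of each other type had between 8.20% and 10.9%. The 30 cells held 184 to 5667 UMIs each.

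**Figure D3:**
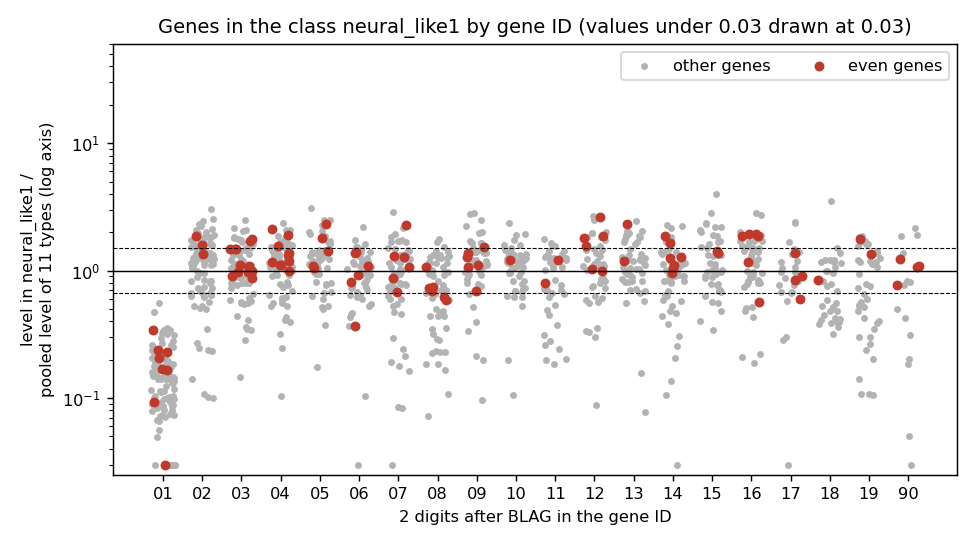
The level in neural_like1 over the pooled level of the 11 types (log axis), with 1 point per gene, by the 2 digits that follow BLAG in the gene ID. Even genes are red, the dashed lines mark 1.5-fold in either direction and values under 0.03 are drawn at 0.03. All 115 genes at the UMI minimum with digits 01, the 8 even genes included, lie under the lower line.

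Some even genes differed between deep and shallow cells of 1 cell type. Posterior epidermal cells were ranked by their UMIs, and the 1637 cells with at least 1837 UMIs (deep cells) were set against the 1641 cells with at most 812 (shallow cells). Of the even genes 28 differed at least 1.5-fold, against 21.3% of all 1142 genes. Lower in deep cells were 11, against 8.41% of all genes, and higher were 17, against 12.9%. The median even gene was higher in deep cells by 0.18 on the log2 scale, against 0.14 for all genes. Plates differed in depth, with medians of 455 to 3099 UMIs per posterior cell, so deep and shallow cells came in part from different plates. Where the deepest and shallowest cells were instead taken within each plate and plates weighted alike, a comparison chosen after seeing the data, 10 even genes were lower in deep cells, against 5.87% of all genes, and 5 were higher, against 4.9%.

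The 11 genes lower in deep cells included some of the most abundant of the set. BLAG90000129 stood at 149 in shallow and 72.1 in deep cells, BLAG90000106 at 135 and 61.0, BLAG03000163 at 67.4 and 33.0, BLAG08000257 at 67.1 and 37.3 and BLAG90000794 at 38.9 and 22.7. The other 6 were BLAG14000835, BLAG17100954, BLAG03002010, BLAG08000255, BLAG03000069 and BLAG03001996. All 11 were highest in posterior epidermis among the 11 types, and 8 were lowest in neural tailbud. Their ratios ran from 1.48 to 2.06. Within plates 9 of the 11 were still 1.5-fold lower in deep cells, and the log2 differences of all 11 ran from -0.83 to -0.54.

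In putative_neuro_endo these 11 genes stood at 2.88 to 4.53 times their pooled level. BLAG90000129 reached 312 UMIs per 10,000 there and BLAG90000794 94.4 (87.6 to 102), against at most 93.1 and 28.4 in any of the 11 types. All 11 of 11 passed 1.5-fold higher in that class, where 11.3% of all genes did. In neural_like2 they were at 1.32 to 1.73 times the pooled level, while in DiMes, epidermal_neural1 and epidermal_neural2 all 11 were below it (0.46 to 0.86, 0.48 to 0.80 and 0.53 to 0.78). As putative_neuro_endo is also the shallowest class, depth and cell class cannot be told apart for these genes.

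The same 11 genes were correlated from cell to cell. Across the 6546 posterior epidermal cells the 55 pairs among them had a median Pearson correlation of 0.28 (0.078 to 0.66) in their share of a cell's UMIs, and 21 pairs exceeded 0.3. Among all 4950 pairs of even genes the median was 0.00089 and 22 pairs exceeded 0.3. The 11 genes were picked by their difference with depth in these same cells, so the correlation is not independent of that choice. These cells share their plates and range of depth, and the part of depth in the correlation was not tested.

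The 17 genes higher in deep cells were little correlated. Their pairs had a median correlation of 0.016, and the single pair over 0.3 was BLAG04000491 with BLAG04000492 (0.82). The largest steps were in BLAG09000528, at 7.55 in deep and 3.50 in shallow cells, and BLAG03000829, at 2.36 and 1.16. In putative_neuro_endo 12 of the 17 were at least 1.5-fold lower and 1 was higher, and their median was 0.50 of the pooled level, where 47.6% of all genes were lower and the median was 0.70. None of the 17 was highest in posterior epidermis. Within plates only 5 of the 17 were still 1.5-fold higher in deep cells. BLAG09000528 remained so with a log2 difference of 0.84, while BLAG04000148 had 0.30 and BLAG05001023, whose level varied most between plates, had -0.31.

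Over all 100 even genes the log2 difference between deep and shallow posterior cells and the log2 level in putative_neuro_endo had a Pearson correlation of -0.76, against -0.46 for all 1142 genes. These genes share libraries, plates and depth. For the even genes the same difference taken in anterior epidermis and in neural cells had correlations of 0.90 and 0.83 with that in posterior epidermis. Of the even genes 65 had 1 direction in all 3 types. Neither these correlations between cell types nor this count was computed for all 1142 genes. Whether they are particular to the even set was therefore not tested.

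**Figure D4:**
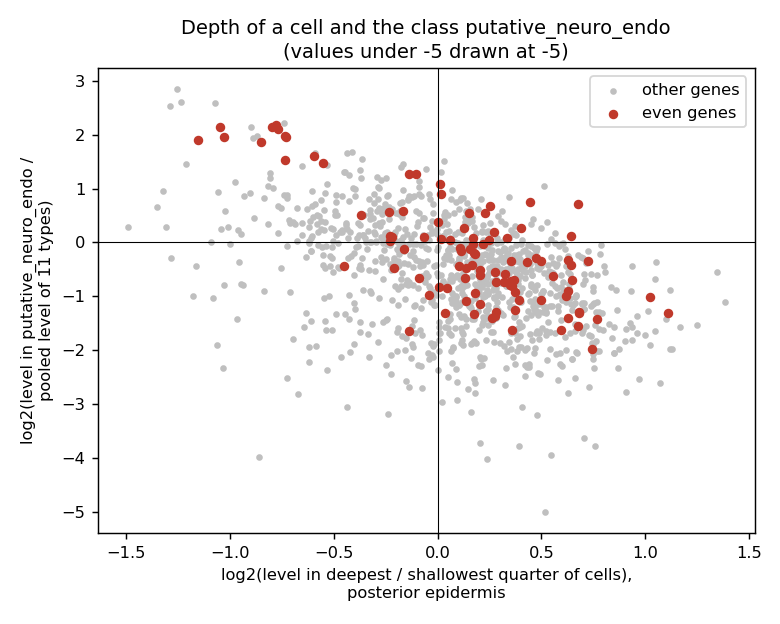
For each gene, the log2 ratio of its level in deep to that in shallow posterior epidermal cells (x axis) and log2 of its level in putative_neuro_endo over its pooled level in the 11 types (y axis); values below the axis are drawn at its lower end. The even genes (red) run from upper left to lower right with a correlation of -0.76, and the 11 genes lower in deep cells lie at the upper left between 2.88 and 4.53 times the pooled level.

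BLAG04000491 and BLAG04000492 are neighbours in ID number and the even genes with most UMIs (407628 and 344085). Their levels ran from 93.7 to 162 (median 135) and from 79.9 to 136 (median 111), and the quotient of the 2 levels stayed between 1.14 and 1.29 over the 11 types. Reads that matched several places in the genome were kept in the mapping, so genes with near-identical sequence can share reads, and for such pairs the split of UMIs is uncertain. In putative_neuro_endo they stood at 0.33 and 0.25 of their pooled level. BLAG08000255 and BLAG08000257, both among the 11 genes above, had a quotient of 0.057 to 0.070.

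Between the metacells of a cell type the median even gene varied less than the median of all genes, least so in posterior epidermis. Over the 82 metacells of posterior epidermis the coefficient of variation of the level, with the variance expected from counting taken off, had a median of 26.6% for the even genes and 28.7% for all genes, and 55 of the 100 lay under the latter. In anterior epidermis the medians were 19.4% and 22.1% over 37 metacells, in neural cells 17% and 21.7% over 15, in endoderm 19.6% and 22.2% over 11, and in non-muscular somites 16.1% and 21.3% over 8. The even genes under the median of all genes numbered 59, 67, 59 and 64 of 100, in that order of types. Metacells were built from these same counts, and the part of that grouping in the spread was not tested.

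At the high end of the spread over posterior metacells stood BLAG04000148 with 94%, at levels from 0.194 to 8.31 (median 1.21). Next came BLAG09000528 with 80.2%, from 1.5 to 15.7 (median 4.18), and BLAG04001737 with 58.8%, from 7.75 to 74.1 (median 29.1). At the low end were BLAG11000191 with 6.81% (2.10 to 5.99, median 4.16), BLAG12000185 with 9.27% (0 to 2.14, median 1.35) and BLAG06001125 with 11.2% (0.644 to 3.94, median 1.71). BLAG12000185, one of the least variable within posterior epidermis, was also 1 of the last 3 genes to enter the set.

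From single cell to single cell the even genes varied like other genes. Posterior epidermal cells with at least 1000 UMIs (4209 cells) were each thinned to 1000 UMIs, and the variance over the mean had a median of 1.28 for the even genes and 1.28 for all genes. Genes were also split by their UMIs at 7096 and 12358. In the low class the medians were 1.23 for 36 even genes and 1.25 for 381 genes. In the middle class they were 1.27 for 22 and 1.27 for 380. In the high class they were 1.40 for 42 even genes and 1.35 for 381 genes. That class was not matched in level: the median even gene was detected in 51.7% of the thinned cells, against 35.6% for all its genes. The highest value, 7.47, belonged to BLAG90000129, followed by BLAG04000491 at 6.73 and BLAG04000492 at 5.99.

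A few even genes differed widely between plates. In posterior epidermis the spread over the 40 plates had a median of 24.4% for the even genes and 23.3% for all genes. Even genes over 50% numbered 5, against 4.29% of all genes. BLAG05001023 ran from 0 to 12.7 between plates (median 1.54), BLAG17000599 from 0.856 to 40.7 (median 3.35) and BLAG03000069 from 0.0710 to 14.2 (median 5.56). BLAG05001023 and BLAG17000599 had ratios of only 1.62 and 1.5 between cell types, and both stayed in the set under 13 alternative ways of choosing it.

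The plate levels of BLAG04000148 had a gap. On 7 plates its level in posterior epidermis was 4.79 to 6.42, and on the other 33 it was 0.171 to 1.67. In posterior epidermis the same 7 plates were also the lowest for BLAG04000491 and BLAG04000492, though with no wide gap. BLAG04000491 stood at 42.0 to 63.2 on the 7 and at 65.7 to 148 on the other 33. BLAG04000492 stood at 32.3 to 55.7 and at 56.3 to 135. In anterior epidermis both genes overlapped. BLAG04000491 reached 155 on the 7 plates and went down to 82.5 on the others, and BLAG04000492 reached 140 and went down to 68.3. These plates were told apart by the values themselves, so no test was made. The median depth of posterior cells overlapped between the 7 plates (738 to 2333 UMIs) and the 33 (455 to 3099). In anterior epidermis BLAG04000148 stood at 2.62 to 3.21 on the 7 plates and at 0 to 1.86 on the other 33. For BLAG05001023 and BLAG17000599 the plate levels in anterior and posterior epidermis had correlations of 0.98 and 0.99 over the 40 plates. The median correlation over even genes was 0.53, against 0.48 for all genes. What differs between the plates is not given in the sources used here.

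**Figure D5:**
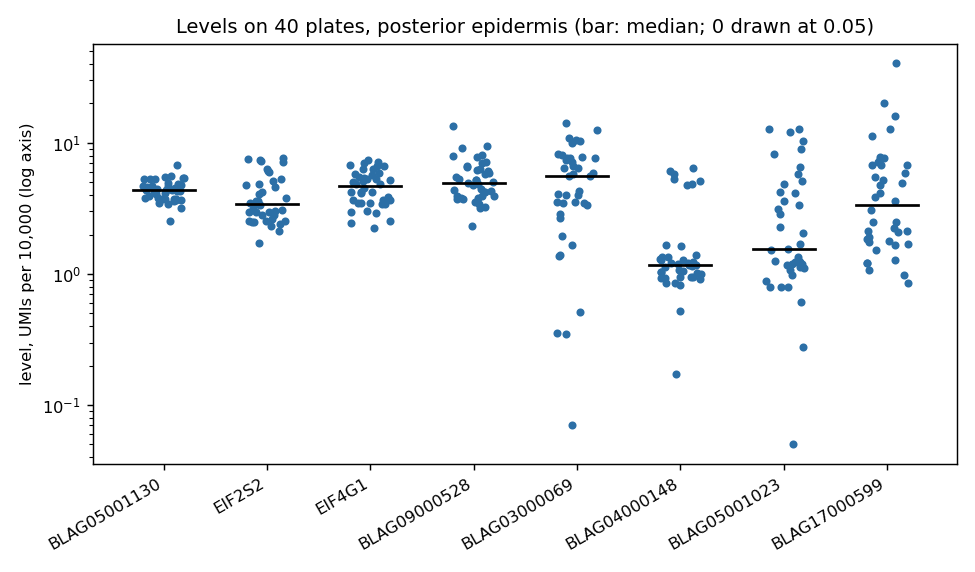
Levels of 8 even genes in posterior epidermal cells on each of 40 plates (points; log axis, a level of 0 drawn at 0.05), with the median as a bar. BLAG05001130, the most even gene across cell types, runs from 2.53 to 6.84 here. In anterior epidermis, not drawn, its plate levels ran from 1.12 to 8.50. BLAG04000148 falls into 7 plates at 4.79 to 6.42 and 33 plates at or under 1.67.

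Among the named genes *EIF2S2* varied most, with plate levels of 1.71 to 7.70 (median 3.39) and a spread of 42.2%, the 14th highest of the 100. On the 7 plates named above it stood at 6.05 to 7.70, and on the other 33 at 1.71 to 6.11. *EIF4G1* had plate levels of 2.23 to 7.38 (median 4.70) with a spread of 27.5%. *Max* had a spread of 12.5%, *ZMIZ1* 19.0% and *CREBZF* 20.8%. None of the 5 differed 1.5-fold between deep and shallow posterior cells.

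Choosing the genes on some plates and measuring them on others showed how far the set itself repeats. The 100 genes chosen on the 20 odd-numbered plates had a median ratio of 1.92 there and of 1.97 on the 20 even-numbered plates, where they ran from 1.26 to 3.24. All genes at the minimum had a median of 5.15 on those plates. Of the 100, 98 had a ratio of 3 or less on the plates that had not chosen them, against 304 of 1137 genes. Choosing on the other plates shared 67 of the 100. Plates are batches of the same embryos, so this repeats the measurement and not the experiment.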

How the data were processed

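The authors mapped MARS-seq reads to the *B. lanceolatum* genome with STAR, keeping reads that matched several places, and filtered UMIs for errors. They deposited UMI counts per gene and cell (raw counts, unit counts) and, for each cell, a metacell number and a cell type name, labels of the authors' clustering that are neither counts nor levels. A deposited table of metacell fold changes was not used. ATAC-seq samples were not used. No further doublet call was made, and doublets had been excluded at sorting.

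Levels were summed UMIs per 10,000 UMIs of all genes. Intervals were exact Poisson 95% intervals. The coefficient of variation had the Poisson variance taken off. Scripts used Python 3.11.15, numpy 2.4.6, scipy 1.17.1 and pandas 2.3.3 and were tested on simulated data. Named were members with a symbol in the supplementary table, the 5 smallest ratios, 3 genes either side of the limit, the 5 farthest in the left-out types, and 3 at either end of the metacell spread. All others, among them *Max*, *ZMIZ1*, *CREBZF*, *RBM39* and the genes tied to depth, plates, ID neighbours and BLAG01, were chosen after their values were seen. Members and gene lists were chosen with earlier results of these data known. Symbols matched 168 of 1142 genes, 3 of 292 names being read from figures. The RefSeq table matched 0 of the IDs, so no sequence or position is given.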

Additional observations from a re-analysis of the deposited data

How the results depend on the processing

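Of the 100 genes, 55 stayed with a minimum of 2000 UMIs, 38 with all 17 cell types in the ratio and 56 with the 100 genes with most UMIs left out of the total. At a minimum of 10000 UMIs 51 stayed, which are all the even genes that meet it. Under the other alternative rules 72 to 99 stayed. The set's highest ratio, 2.08, became 2.72 at a minimum of 10000 UMIs, 2.73 over 17 types and 2.53 where genes were ranked by the coefficient of variation, with or without the counting variance. In all 13 of these alternatives 8 genes stayed, *EIF2S2* among them, and 60 stayed in at least 10. *CREBZF* stayed in 4.

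Of 600 pairs of an even gene and a left-out type 177 were off by 1.5-fold and 61 by 2-fold. Among all 1142 genes 10.7% to 58.9% were off by 1.5-fold, depending on the type. No share of all genes was counted at 2-fold. Chosen after seeing the data, leaving out BLAG01 genes gave 156 pairs, leaving out neural_like1 141, leaving out putative_neuro_endo 118 and leaving out the 7 genes under the minimum in the 11 types alone 168. Counting the minimum in the 11 types alone kept 93 of the 100 genes. The median spread over metacells of 26.6% was 19.4% in anterior epidermis and 39.8% as observed, without taking counting variance off. The median spread over plates of 24.4% was 17.7% in anterior epidermis and 28.7% as observed. The median log2 difference of deep from shallow cells, 0.18, was 0.13 in anterior epidermis and, chosen after seeing the data, 0.059 within plates, where 15 even genes passed 1.5-fold in place of 28. The cause of these shifts was not tested. Levels in classes of few cells are limited by depth: the median even gene had 21 UMIs in neural_like1 and 23 in putative_neuro_endo. No paired analysis was possible because the cells are not assigned to the 2 samples and no result comes from a test.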

Other observations

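The even genes took a larger share of UMIs in some of the left-out classes than in any of the 11 main types. They held 14.6% in putative_neuro_endo, 13.0% in neural_like1 and neural_like2 and 12.7% in epidermal_neural2, above the 10.1% to 12.1% of the 11 main types, while DiMes had 10.7% and epidermal_neural1 10.6%. Among genes outside the set, 85 were at least 1.5-fold lower in deep than in shallow posterior epidermal cells, and 33 of these were at least 1.5-fold higher in putative_neuro_endo. Of the 130 that were higher in deep cells, none was higher in that class and 109 were lower.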
